A study of Arabidopsis thaliana with 4 samples.

Results

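The genes described here had less RNA than untreated seedlings after 2 h of salt and more after 5 h. They were chosen by their own values: the log2 ratio of salt to untreated signal, centred on each array's median, had to be at most -0.5 on both 2 h arrays and at least 0.5 on both 5 h arrays. The brightest probe stood for each gene, and only probes well above background in the untreated channel on all 4 arrays and in the salt channel on both 5 h arrays were eligible. Of 18865 eligible genes, 108 met the rule (0.572%). Because the rule used every array and both times, the levels of these genes are a description and carry no test of their own.

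The samples were whole Arabidopsis thaliana seedlings of the wild-type ecotype Col-0, 14 days after germination, raised with 8 h of light a day on agar with sucrose. They were laid on paper wetted with 300 mM NaCl and sampled after 2 h or 5 h, with 2 biological replicates per time in the series' design text. Each of the 4 Agilent arrays carried RNA of untreated seedlings (0 h) in the dye Cy3 and RNA of salt-treated seedlings in Cy5, with no dye swap. The 0 h sample is not numbered, so it was counted as 1 control sample whose own spread is not in any value. Salt, dye bias and the transfer to wet paper cannot be told apart here, nor can time of day and time in salt. In whole seedlings, fewer cells of a type and less RNA per cell cannot be told apart.

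High salt withdraws water from plant cells and loads them with sodium. Abscisic acid (ABA), the hormone of water deficit, then builds up and binds receptors that inhibit clade A protein phosphatases 2C, which frees protein kinases to switch on protective genes. Among the best known of those genes are the late embryogenesis abundant (LEA) proteins and dehydrins, which also accumulate in drying seeds, and lipid transfer proteins and wax enzymes of the plant surface.

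Median spot signals were 252 to 282 in Cy3 and 342 to 372 in Cy5, over backgrounds of 33 to 37.5 and 52.5 to 54, and 0 spots were saturated. The number of arrays, 2 per time, limits the precision. The 5 h arrays differed by an almost uniform shift, with array 1 higher by a median of 0.139 (log2) over eligible genes, and 101 of the 108 genes were higher on array 1. With that shift limma gave nearly every gene the same standard error, 0.114 for a time and 0.162 for 5 h against 2 h. Summed marker signal in Cy5 was 107% and 109% of Cy3 for leaf mesophyll on the 2 h arrays and 91.8% and 94.3% on the 5 h arrays. For roots it was 65.0% and 59.8% at 2 h and 43.6% and 42.3% at 5 h, and for guard cells 85.1% to 92.9% over all arrays. For the 6 kept pollen and flower markers it was 142% and 133% at 2 h and 135% and 133% at 5 h. The pollen and flower markers AG, AMS, AP1, MS1 and VGD1 were too dim to be kept.

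A turn from lower to higher was uncommon. Of 4307 eligible genes lowered on both 2 h arrays, 2997 were also lowered on both 5 h arrays, 806 lay within 0.5 of 0 on both 5 h arrays, and 108 (2.51%) were raised. Of 4025 genes raised at 5 h, 2429 had been raised at 2 h, 1250 lay within 0.5 of 0 on both 2 h arrays, and 108 (2.68%) had been lowered. The opposite turn, raised at 2 h and lowered at 5 h, was met by 42 genes. Eligible probes had to be well above background in Cy5 at 5 h but not at 2 h. Genes that fell to background at 5 h are therefore missing from the counts lowered at 5 h, and the 108 and the 42 are not like counts. Over all eligible genes the 2 h and 5 h means correlated at r = 0.797, a description over genes that share arrays and a control.

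**Figure D1:**
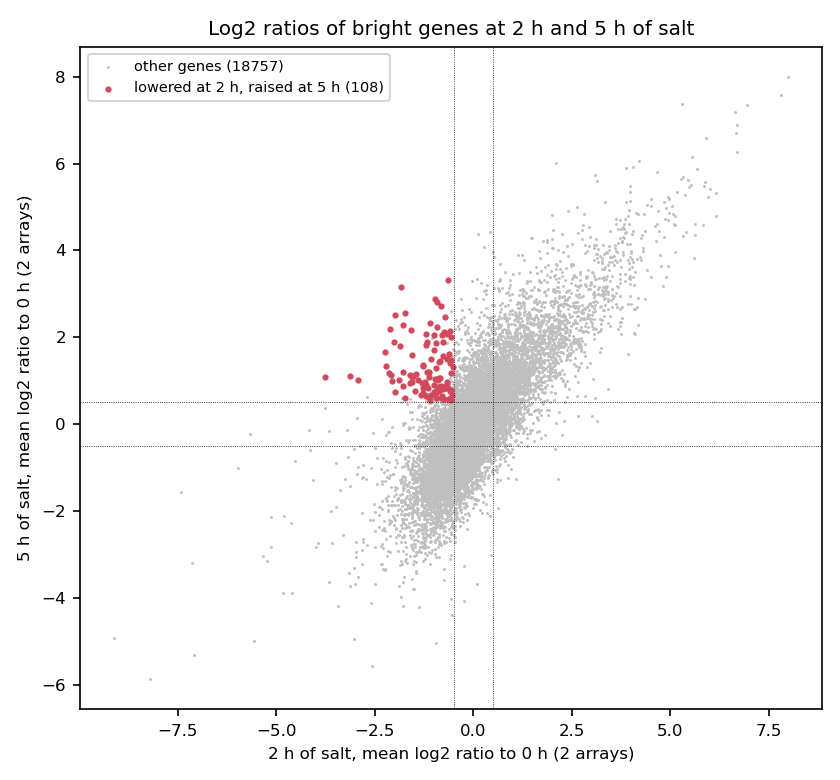
Mean log2 ratio to 0 h at 2 h of salt (x axis) against 5 h of salt (y axis), each point 1 eligible gene and the mean of 2 arrays, with dotted lines at the thresholds of 0.5 and -0.5. The 108 chosen genes, in red, fill the upper left corner by construction, beside the other eligible genes, which mostly lie along the diagonal.

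Mean log2 ratios of the 108 genes ran from -3.76 (PAP85, not well above background) to -0.52 at 2 h (median -0.997) and from 0.54 to 3.32 at 5 h (median 1.08), beside medians of -0.17 and -0.16 over all eligible genes. The 2 times lay 1.11 to 4.98 apart (median 2.31). By measured values the rise was larger than the fall in 60 genes and smaller in 48. These 2 counts are not exact, since they include 11 genes too dim at 2 h for the fall to be measured. At least a 2-fold fall was seen in 46 genes, with genes too dim at 2 h taken at the bounds given below, at least a 2-fold rise in 63, and both in 28. The difference between replicate arrays had a median of 0.08 at 2 h and 0.13 at 5 h, and the times did not overlap in any of the 108 genes, as the rule requires. In limma's test with Benjamini-Hochberg adjustment all 108 were called lower at 2 h, where 44.6% of genes tested were called lower, all 108 higher at 5 h (32.4% of genes tested) and all 108 higher at 5 h than at 2 h (22.9%). None was called higher at 2 h or lower at 5 h (46.3% of genes tested were called lower then). Nothing is read from these calls, since the rule used the same contrasts.

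The deeper falls rest partly on dim spots. Cy5 was well above background on both 2 h arrays for 94 genes, on 1 array for AT4G18660, AT1G09176 and SDH2-3, and on neither for 11. For those 11 the fall is only bounded, at 1.13-fold to 6.44-fold or more. The 3 genes dim on 1 array were given no bound and stand at their measured values, so their falls are not exact. Each bound compares the mean Cy3 level with the dim spot or the lowest well-detected signal, whichever is higher. For 5 of the 11 (AT2G03850, AT1G09510, AT1G54860, AT1G64107 and ORP4A) the bound is smaller than the threshold of 0.5. With the 11 at their bounds the median of the 108 at 2 h was -0.94, and the lowest was -2.92, of AT4G21020. Under normexp with an offset of 50 and loess, which shrinks ratios of dim spots, the 11 were 1.11-fold to 2.24-fold lower. Over all 108 genes that processing moved the fold at 2 h by more than 1.5 times in 31, these 11 among them, and the fold at 5 h in 11. ZFP2, LDOX and SPL5 were bright on both 2 h arrays. Their means at 2 h moved from -1.40 to -0.46, from -1.31 to -0.57 and from -0.88 to -0.24.

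The difference between the times lay in the salt channel for nearly all of these genes. Relative to the median of all eligible genes, Cy5 was higher on the 5 h arrays than on the 2 h arrays by 1.02 to 4.45 (log2, median 2.15) in the 94 genes bright in Cy5 on both 2 h arrays. Cy5 was higher in all 108, beside 9432 of 18865 eligible genes, but its size is not measured where Cy5 was not above background at 2 h. Over all eligible genes Cy5 differed by 0.5 or more, in either direction, in 34.9%. The count of 108 follows largely from the rule, which requires the ratio to rise. Cy3, which carries 0 h RNA on every array, differed by a median of -0.04. Cy3 differed by 0.5 or more in 3 of the 108 genes (2.78%) and in 0.657% of all eligible genes. In RAB18 Cy3 differed by -1.23 and Cy5 by 1.98. In LTP3 the values were -0.89 and 4.104, and in AT3G62550 -0.58 and 2.06. For these 3 genes part of the ratio's change came from the 0 h channel.

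**Figure D2:**
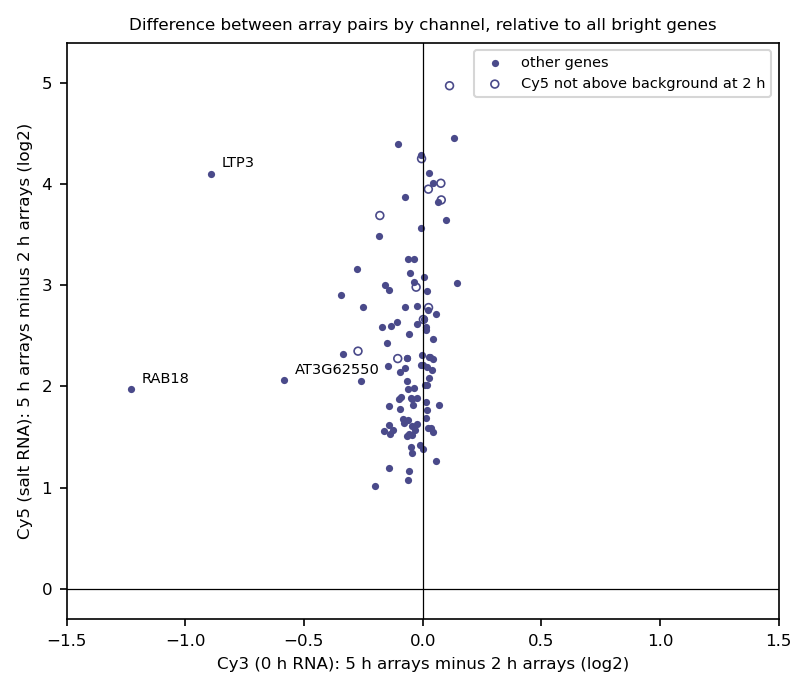
Difference between the 5 h and the 2 h arrays in Cy3 (0 h RNA, x axis) and in Cy5 (salt RNA, y axis), log2, relative to the median of all eligible genes, each point 1 of the 108 genes. Open points mark the 11 genes whose Cy5 was not well above background at 2 h, where the Cy5 difference is not measured exactly; points stand in a narrow column near 0 in Cy3, with RAB18, LTP3 and AT3G62550 to the left.

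Genes were grouped by role after their values were known: 58 were given a role from textbook knowledge, and 50, most of them named only by locus, were not. The values below are median-centred log2 ratios to 0 h, array 1 before array 2.

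The gene furthest apart between the times was LTP3, a small secreted lipid transfer protein. Its values were -1.83 and -1.81 at 2 h and 3.21 and 3.103 at 5 h, 3.53-fold below and 8.91-fold above 0 h. Its processed Cy5 signal was 7092 and 7099 on the 2 h arrays and 169310 and 153580 on the 5 h arrays, so both 5 h arrays stood far above both 2 h arrays. LTP4, the adjacent paralog, had -1.998 and -1.96 at 2 h and 2.57 and 2.43 at 5 h. The next locus, AT5G59330, had -0.83 and -1.02, then 2.304 and 2.15, so 3 adjacent loci met the rule. LTP3 and LTP4 are close in sequence and are uncertain as single genes.

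CER1, an enzyme of wax alkane synthesis, had -0.81 and -0.70 at 2 h and 1.92 and 1.83 at 5 h on its brightest probe. A different bright CER1 probe read 1.54 and 1.47 at 2 h and 2.00 and 1.86 at 5 h. The probes disagree on the direction at 2 h, and only the rise at 5 h is common to both.

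Seed maturation and dehydration protection held 9 of the genes with a role, with a median of -1.52 at 2 h (-1.29 with dim genes at their bounds) and 1.14 at 5 h. PAP85, a seed storage protein of the vicilin family, read -4.24 and -3.28 at 2 h and stood at 1.19 and 0.97 at 5 h. Its Cy5 spots were not well above background at 2 h, so it was at least 4.25-fold lower there (2.13-fold under normexp with loess) and 2.11-fold higher at 5 h. SMP1, a seed maturation protein also dim at 2 h (at least 1.77-fold lower by its bound, 1.17-fold under normexp with loess), reached 2.197 and 2.13 at 5 h. ATOEP16-2, a plastid outer envelope channel protein known from seeds, had -2.23 and -2.21, then 1.39 and 1.28, with the replicate arrays close at both times. The size of its fall depends on the processing: its mean at 2 h was -2.22, and -0.99 under normexp with loess. SDH2-3, a succinate dehydrogenase subunit of seeds, was uneven at 2 h, with -1.11 and -3.07, and had 1.23 and 1.05 at 5 h. Its Cy5 was not well above background on 1 of the 2 h arrays, so its fall is not exact. Its mean at 2 h was -2.09, and -0.61 under normexp with loess.

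RAB18, a dehydrin and a common marker of ABA response, had -0.73 and -0.72 at 2 h and 2.55 and 2.37 at 5 h. Its spots were bright: Cy5 read 77656 and 86898 at 2 h and 469640 and 388540 at 5 h, while Cy3 read 126360 and 140820, then 82442 and 70290. All 3 other bright RAB18 probes had the same signs on all arrays. LEA18, a LEA protein, had -0.69 and -0.79, then 2.18 and 2.05. The dehydrin XERO1 had -1.30 and -1.28, then 1.02 and 0.88. GEA6, an Em-type LEA protein of the embryo, had -1.41 and -1.0, then 0.91 and 0.89. HVA22B, of a family of stress-induced membrane proteins, had -1.55 and -1.49, then 1.17 and 1.06. In each of these genes both 2 h arrays lay below 0 h and both 5 h arrays above it, as the rule requires.

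Seed and embryo markers as a list moved too. Of 16 kept markers, 13 were called lower and 2 higher at 2 h (44.6% and 26.6% of all genes tested), and 11 lower and 4 higher at 5 h (46.3% and 32.4%). Against 2 h, 13 were called higher at 5 h (22.9% of all genes tested). In 7 of the 16 (SESA2, SESA5, OLEO1, OLEO2, PER1, FUS3 and ABI3) Cy5 was well above background on neither 2 h array, so the sizes of their falls and of their differences between the times are not measured. In 2 of them, SESA2 and ABI3, Cy5 was well above background on no array. Both were called higher at 5 h than at 2 h, but that direction is not measured either. Of the other 9, 6 were called lower and 2 higher at 2 h (median -1.20), and 6 higher at 5 h than at 2 h. Over all 16 markers, the 7 dim ones included, summed Cy5 signal was 4.81% and 4.62% of Cy3 on the 2 h arrays. On the 5 h arrays it was 17.2% and 17.3%. GEA6, 1 of the 16, is also 1 of the 108, so its part in these calls and sums follows from the rule. On array 1 its Cy5 was 467 of a summed 1630 at 2 h and 2954 of 8080 at 5 h. CRU2, LEC1 and LEC2 were too dim to be kept. The cruciferin CRU3, a main seed storage protein, stayed at -5.85 and -5.89 at 5 h. The part of these markers in the values of the seed genes above was not tested.

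Most dehydration protection genes did not share the early fall. Of 29 listed genes, all eligible, 21 were called higher and 6 lower at 2 h (median 1.21), and 28 higher and 1 lower at 5 h (median 2.69), beside 26.6% higher and 44.6% lower at 2 h, and 32.4% and 46.3% at 5 h, over all genes tested. By the thresholds, 19 were raised at both times, 4 only at 5 h, and 4 (13.8%) were lowered and then raised: LEA18, GEA6, XERO1 and HVA22B. Over all 18865 eligible genes these counts were 2429, 1250 and 108. RAB18's symbol matched more than 1 gene, so it was not counted in the list. RD20, a calcium-binding lipid droplet protein, had 4.12 and 4.00 at 2 h and 5.98 and 5.86 at 5 h. LTI65 (RD29B), an ABA-responsive gene, missed the rule on 1 array, with -0.48 and -1.62, then 2.36 and 1.62. EM1, the paralog of GEA6, had 0.09 and -0.31 at 2 h, on both sides of 0, and 2.79 and 2.49 at 5 h. The sign of EM1's mean at 2 h (-0.11) turned under other processing.

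**Figure D3:**
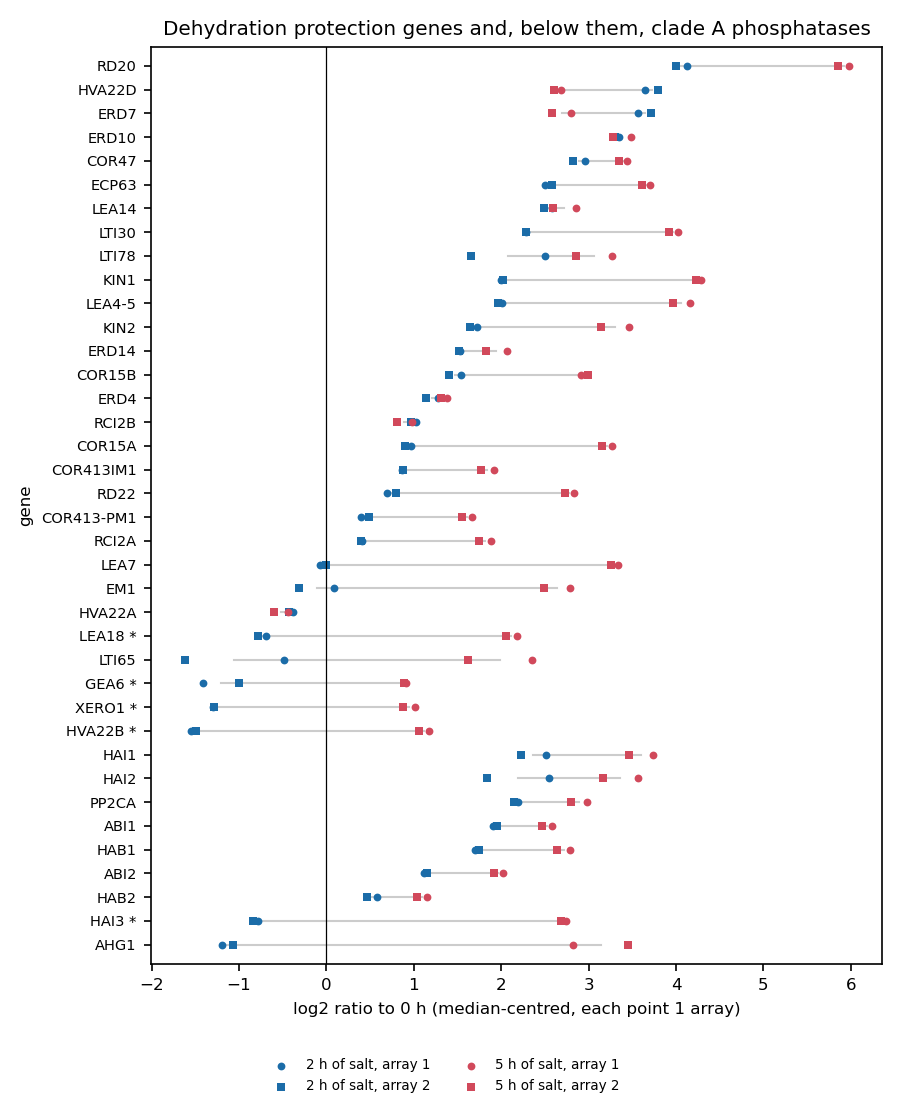
Log2 ratio to 0 h (x axis) on each array for the 29 dehydration protection genes and, below them, the 9 clade A phosphatases, blue for 2 h and red for 5 h, circles for array 1 and squares for array 2, with a line between the means; an asterisk marks the chosen genes. Only LEA18, GEA6, XERO1, HVA22B and HAI3 carry one, and most other genes lie right of 0 at both times.

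HAI3, one of the clade A phosphatases that hold back ABA signalling, had -0.79 and -0.84 at 2 h and 2.74 and 2.69 at 5 h, 1.75-fold below and 6.57-fold above 0 h (1.17-fold and 4.097-fold under normexp with loess). Of the 9 clade A phosphatases measured, 7 were called higher and 2 lower at 2 h (median 1.72), and 9 higher at 5 h (median 2.72). Over all genes tested 26.6% were called higher and 44.6% lower at 2 h, and 32.4% higher at 5 h. Its relatives HAI1 (2.51 and 2.22 at 2 h) and HAI2 (2.54 and 1.84) were already high at 2 h. AHG1, a seed-expressed member of the clade, had -1.19 and -1.07, then 2.83 and 3.45, but Cy3 was well above background on 1 of 4 arrays and Cy5 on neither 2 h array, so its level at 2 h, 1 of the 2 calls lower, is not measured. CYP707A4, an ABA 8'-hydroxylase that breaks the hormone down, had -1.08 and -0.88, then 1.08 and 0.99. Its paralog CYP707A2 had -1.20 and -1.18, then 0.60 and 0.46, and missed the rule on 1 array, while CYP707A1 had 1.55 and 1.43, then 3.16 and 3.01. Of 12 measured genes of ABA synthesis and breakdown, 6 were called higher and 3 lower at 2 h, and 11 higher and 1 lower at 5 h (26.6% and 44.6%, then 32.4% and 46.3%, of all genes tested). AT3G63210 (MARD1 in RefSeq's synonyms, named there as a mediator of ABA-regulated dormancy) had -0.79 and -0.86, then 0.94 and 0.76.

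Sugar, inositol and solute transport genes, 7 in number, had a median of -0.999 at 2 h and 2.04 at 5 h. SAG29, also called SWEET15, a sucrose exporter known from senescing leaves, had -2.10 and -2.11, then 2.25 and 2.15. Its Cy5 signal was 761 and 789 at 2 h and 22971 and 21943 at 5 h. DIN2, a beta-glucosidase induced by darkness and sugar starvation, was the highest of all at 5 h, with 3.36 and 3.28 after -0.60 and -0.66. A different DIN2 probe had the same signs but only -0.10 on 1 of the 2 h arrays. SUS3, a sucrose synthase, had -1.06 and -0.93, then 1.76 and 1.67, and its other bright probe passed the same thresholds. MIOX1, an inositol oxygenase, had -0.84 and -0.91, then 1.49 and 1.36. INT2, an inositol transporter, fell further than it rose, with -1.98 and -1.997, then 0.81 and 0.65. ABCC10, an ABC transporter, had -0.78 and -0.81, then 2.17 and 1.91, and AT1G68570 (NPF3.1) of the nitrate and peptide transporter family -1.13 and -1.08, then 2.397 and 2.24. Of 23 sugar transporters measured, 9 were called higher and 10 lower at 2 h, and 13 higher and 7 lower at 5 h (26.6% and 44.6%, then 32.4% and 46.3%, of all genes tested). SAG29 was the 1 that met the rule.

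**Figure D4:**
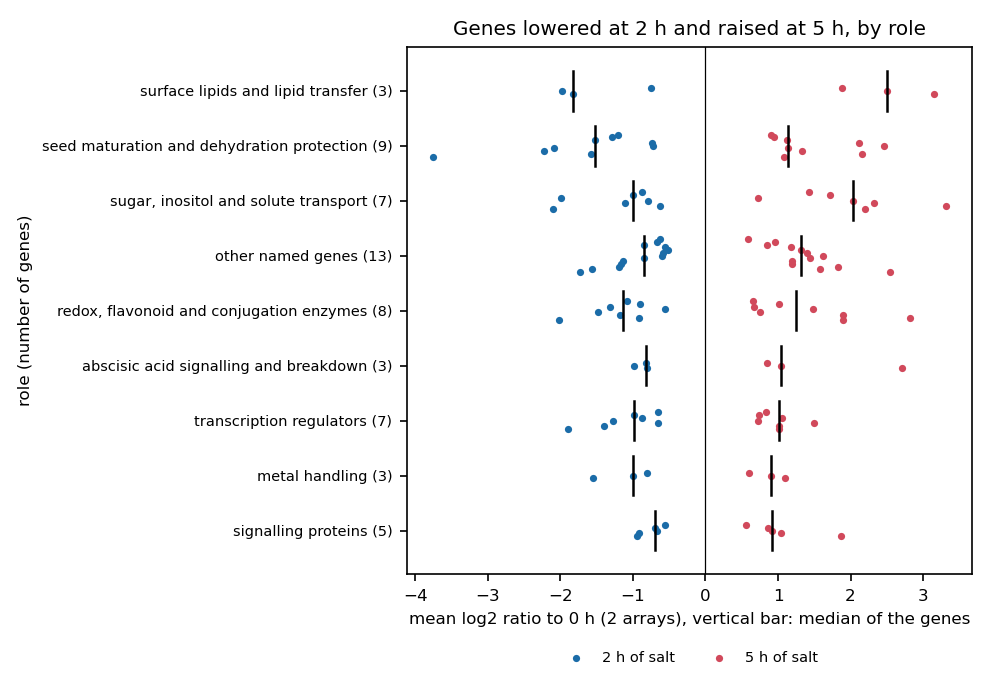
Mean log2 ratio to 0 h (2 arrays) at 2 h (blue) and 5 h (red), 1 point per gene, for the 58 genes given a role, dim genes at their measured values, with a vertical bar at each group's median. Surface lipid genes have the widest gap (medians -1.82 and 2.50) and signalling proteins a narrower one (-0.70 and 0.92). The surface lipid group is only 3 genes: LTP3 and LTP4, uncertain as single genes, and CER1, whose probes disagree at 2 h.

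Enzymes of redox balance, flavonoids and conjugation, 8 in number, had a median of -1.13 at 2 h (-1.09 with CYP709B2 at its bound) and 1.25 at 5 h. UGT85A3, a glycosyltransferase, had -0.69 and -1.14, then 2.94 and 2.69. GPX7, a glutathione peroxidase of the plastid, had -1.15 and -1.21, then 2.02 and 1.76. VTE1, the tocopherol cyclase of vitamin E synthesis, lay closest to the threshold, with -0.51 and -0.61, then 1.56 and 1.39. CYP709B2, a cytochrome P450, was dim at 2 h and at least 2.14-fold lower by its bound (1.38-fold under normexp with loess). It had 1.95 and 1.85 at 5 h. The anthocyanin enzyme LDOX had -1.24 and -1.39, then 0.67 and 0.67, and the adjacent locus AT4G22870 had -1.10 and -1.18, then 0.88 and 0.76. GSTF12, a glutathione transferase of anthocyanin transport, had -1.49 and -1.49, then 0.81 and 0.70. A different GSTF12 probe read 0.09 and 0.03 at 2 h and 0.67 and 0.47 at 5 h, so its fall rests on 1 probe. IAGLU and UGT74D1, both glycosyltransferases that act on auxins, had -0.85 and -0.94, then 1.15 and 0.88, and -1.06 and -1.10, then 0.74 and 0.57.

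Transcription regulators, 7 in number, had medians of -0.98 and 1.01. HSFA6A, a heat shock factor, had -1.87 and -1.92, then 1.08 and 0.94, a 3.72-fold fall and a 2.01-fold rise. Its paralog HSFA6B had 6.86 and 7.03 at 2 h and 7.60 and 7.12 at 5 h, so the pair differed at 2 h by far more than the replicate arrays. ZFP2, a zinc finger protein of floral organ shedding, had -1.34 and -1.46, then 1.13 and 0.89. CGA1, a GATA factor of chloroplast development, had -0.63 and -0.68, then 1.52 and 1.47. SPL5, a factor of the phase change to flowering, had -0.71 and -1.04, then 0.96 and 1.14. BLH6, a homeodomain protein, had -0.97 and -0.99, then 0.79 and 0.70, and its other bright probe passed the thresholds. The MADS-box factor AGL19 had -0.63 and -0.67, then 0.84 and 0.84, and OFP5, an ovate family repressor, -1.27 and -1.28, then 0.77 and 0.67.

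Signalling proteins had medians of -0.70 and 0.92 over 5 genes. CIPK16, a kinase that partners calcium sensors, had -0.94 and -0.90, then 1.11 and 0.98. DND1, a cyclic nucleotide-gated channel, sat near the threshold with -0.52 and -0.59, then 0.61 and 0.51. RUP2, a repressor of ultraviolet-B signalling, had -0.57 and -0.76, then 1.08 and 0.76. Among metal handling genes, FRO4, a ferric and cupric reductase, had -1.52 and -1.59, then 1.13 and 1.05. LPR1, a ferroxidase of the root response to phosphate, had -1.09 and -0.91, then 0.97 and 0.84, but a different LPR1 probe read 0.12 and 0.05 at 2 h.

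Some other genes were given no role shared with the groups above. ABCF2, an ABC protein without membrane spans, had -1.88 and -1.58, then 2.57 and 2.53, a 3.32-fold fall and a 5.84-fold rise, which under normexp with loess were 1.58-fold and 4.40-fold. CSLB03, a cellulose synthase-like protein, had -1.25 and -1.13, then 1.84 and 1.801. EGY3, a plastid protein of the site-2 protease family, had -0.71 and -0.63, then 1.04 and 0.90. AT3G17520 had -1.72 and -1.85, then 2.35 and 2.21, and AT4G21020 had -2.81 and -3.02, then 1.02 and 1.00, both bright on all arrays. The fall of AT4G21020 was 7.55-fold, and 2.84-fold under normexp with loess. AT5G01300 had -2.17 and -2.09, then 1.27 and 1.07. AT1G27461, dim at 2 h, was at least 6.44-fold lower (2.24-fold under normexp with loess) and then had 1.21 and 0.99. The 50 genes without a role had a median of -1.08 at 2 h (-0.95 with dim genes at their bounds) and 0.97 at 5 h.

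**Figure D5:**
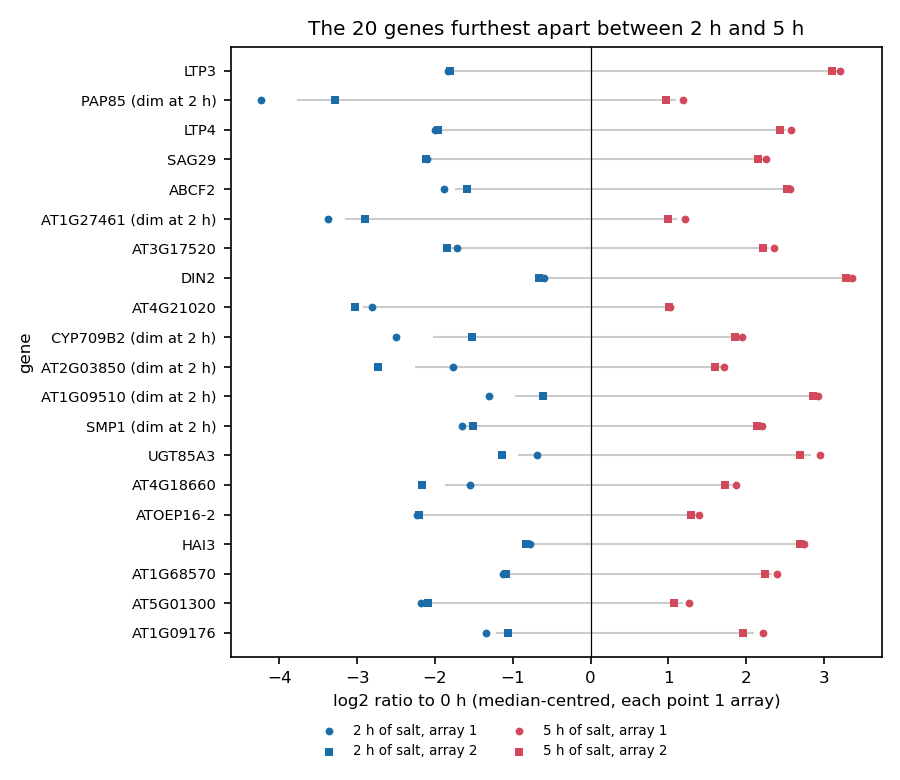
Log2 ratio to 0 h (x axis) on each array for the 20 genes furthest apart between the times, blue for 2 h and red for 5 h, circles for array 1 and squares for array 2, with a line between the means. All 2 h points lie left of 0 and all 5 h points right of it, and genes written as dim had Cy5 not well above background on either 2 h array, so their blue points are not exact.

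More than 1 bright probe was present for 25 of the 108 genes, 27 other probes in all. The same sign on all arrays was read by 23 of these, and 12 also passed the thresholds. The 4 that differed belong to CER1, LPR1, GSTF12 and AT1G76820, whose other probe stayed below 0 at 5 h (-0.44 and -0.63). Just inside the thresholds lay VTE1 and DND1, and just outside lay AT2G17500 (-0.499 and -0.617 at 2 h, 1.21 and 1.03 at 5 h) and AT5G47550 (-0.495 and -0.527, then 1.88 and 1.60).

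Few genes of the pathways listed followed this course. Over 43 lists, 794 distinct eligible genes were measured and 11 of them (1.39%) were among the 108, beside 0.572% of all eligible genes; the lists were drawn up with earlier results of these data known, so nothing particular is read from that share. The 11 lie in 10 lists. Of 16 sugar starvation and dark-induced genes, DIN2 alone met the rule, while 12 were called higher and 1 lower at 2 h, and 13 higher at 5 h. Of 18 senescence genes, SAG29 alone met it, while 14 were called higher and 3 lower at 2 h, and 16 higher and 2 lower at 5 h. Of 23 heat shock genes, with HSFA6A the 1 that met it, 11 were called higher and 7 lower at 2 h, and 17 higher and 2 lower at 5 h. Of 30 reactive oxygen enzymes, with GPX7 the 1 that met it, 13 were called higher and 8 lower at 2 h, and 15 higher and 6 lower at 5 h. Of 16 wax and cuticle genes, with CER1 the 1 that met it, 12 were called higher and 4 lower at 2 h, and 14 higher and 2 lower at 5 h. These counts stand beside 26.6% of all genes tested called higher and 44.6% lower at 2 h, and 32.4% higher and 46.3% lower at 5 h. None of the 16 morning clock genes, 11 evening clock genes, 36 photosynthesis genes or 30 eligible jasmonate genes was among the 108. With 0.572% of all eligible genes among them, nothing is read from that in lists of this size. Of the 30 eligible jasmonate genes 26 were raised at both times, and 24 of 25 eligible DREB and ERF factors were, beside 2429 of 18865 eligible genes. The other 97 of the 108 genes stood in no list.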

How the data were processed

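Salt and untreated RNA were compared on 4 Agilent 2-colour arrays, all on 1 slide. Per the file headers, the deposited files hold intensity per spot in Cy3 and Cy5, background-subtracted and dye-normalized by Feature Extraction 11.5.1.1 (the submitters' processing notes name 9.3.2.1), and a log10 ratio of Cy5 over Cy3. The deposited series table holds log2 ratios that followed those ratios (r of 0.9998 to 0.9999 across probes) with a shift of 0.0858 to 0.118 per array whose basis is not stated; its column medians were 0.143, 0.140, 0.0533 and 0.180.

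From the processed intensities the log2 ratio was computed and each array's median subtracted. Spots marked as outliers, 14 to 19 on an array, were dropped, and repeated spots averaged. Of 43603 probes, 34348 matched 1 gene in a RefSeq table (TAIR10.1, names only), giving 20411 genes kept for limma 3.58.1 (R 4.3.3; ratio against 0, and 5 h against 2 h; Benjamini-Hochberg at 0.05). Median centring left the 5 h arrays a uniform shift apart, so limma's prior degrees of freedom were infinite; with normexp and loess they were 5.48. On simulated data of 20411 genes limma called 28% of genes changed by 0.5 (log2) at 2 h and 30% at 5 h. It called 82% and 78% of those changed by 1, and 98% of those changed by 2. In 5 h against 2 h it called 50% and 54% of those changed by 1. These shares do not describe the calls printed above, where nearly every gene had the same standard error, 0.114 for a time. With that error limma called AKINBETA1, which differed by only 0.272 at 2 h (adjusted p = 0.0257). Same-numbered 2 h and 5 h arrays deviated with r = 0.0942, and with 2 pairs the numbers were not taken to pair them.

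The members and lists were chosen with earlier results of these data known. Named genes are the 20 furthest apart, the 5 lowest and 5 highest, list members, regulators, adjacent members, those nearest the threshold and, of each list with a member, up to 3 others with the largest change at 5 h; the other named genes and all roles were chosen after values were seen. Of 932 listed symbols 882 matched 1 gene. Alternatives were normexp with loess, the series table, no centring, other probes, filters and thresholds, a replicate block, and leaving out each array. Promoter motifs were not analysed here.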

Additional observations from a re-analysis of the deposited data

Results flagged for a closer look

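The 108 genes moved in opposite directions at 2 h and 5 h on all arrays, which is the rule that chose them; the difference was not tested independently. Among 3236 eligible probes with no gene name, 14 met the same thresholds. The median of the sugar transporters was -0.0454 at 2 h and 0.879 at 5 h, and that of the leaf mesophyll markers 0.0553 at 2 h and -0.0756 at 5 h, on opposite sides of 0 on all arrays of each time; neither difference between the times was tested.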

How the results depend on the processing

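The number of genes that met the rule depended on the processing. Normexp with loess gave 70, of which 53 were among the 108, a threshold of 0.4 gave 184 and a threshold of 1 gave 26. The series table gave 110 (86 shared), no centring 115 (103 shared), probes bright in both channels 94, and leaving out 1 array 109 to 142. Both directions were kept by 107 of the 108 under normexp with loess, where AT1G54860 read 0.0093 and -0.35 at 2 h. They were kept by 108 under the series table, without centring and without each array. Those counts of 108 follow from the rule, which each gene had to pass on every array. Leaving out an array could not change a sign. The series table and the uncentred values differ from the main values by nearly uniform shifts, well below the rule's threshold. Normexp with loess brought the median of the 108 at 2 h to -0.57 and left 1.03 at 5 h. EM1, outside the rule and named after its values were seen, reversed at 2 h from -0.11 to 0.07313 under normexp with loess, 0.03041 in the series table and 0.08634 without the second 2 h array (-0.3111 without the first); its main value had not passed limma's test (adjusted p = 0.377).

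Counts of called genes stayed within 1.5 times of 14531 at 2 h, 16068 at 5 h and 10279 for 5 h against 2 h under each alternative run. With the replicate number as a block they were 14786, 16225 and 10613. The share called higher at 2 h was 37.3%, against 50.5% under normexp with loess and 48% in the series table; the median of all genes was -0.172 in the main setting and -4.66e-05 under loess. For 5 h against 2 h the share was 45.4%, and 53.7% without the second 5 h array. A slide block was not run, since all arrays share 1 slide. Dim Cy5 spots limit the falls of 11 genes to bounds and leave those of 3 more, dim on 1 of the 2 h arrays, inexact.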
